A study of Mus musculus with 2 samples.

Results

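The thrombospondin genes *Thbs1*, *Thbs2*, *Thbs3* and *Thbs4* and the gene of cartilage oligomeric matrix protein, *Comp*, were followed in RNA sequencing libraries of mouse embryonic forelimb cells. They were taken by gene symbol, with earlier results of these data known, and all 5 were found among 22096 symbols in the deposited tables. The cells came from mouse embryos at E13.5 of gestation, on a mixed strain background, and were sorted by flow cytometry into ScxGFP-positive and ScxGFP-negative populations. The ScxGFP reporter places green fluorescent protein under regulatory sequence of *Scx*, which encodes scleraxis, the bHLH transcription factor that marks progenitors of tendon and ligament. The negative population holds all other sorted cells of the limb. Each population gave 1 library, from a pool of 6 forelimbs (3 pairs), so there were no replicates, no test was possible, and every difference below describes these 2 libraries.

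Thrombospondins are secreted, calcium-binding glycoproteins of the extracellular matrix that assemble into multimers and link cell-surface receptors to collagens, proteoglycans and growth factors. Thrombospondins 1 and 2 form trimers and carry type 1 repeats, the domain through which they bind CD36 and, in thrombospondin 1, activate latent TGF-beta. Thrombospondins 3 and 4 and COMP form pentamers and lack type 1 repeats. Thrombospondin 4 and COMP are abundant in mature tendon, and thrombospondins act at sites of muscle attachment in zebrafish and Drosophila.

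Levels are the authors' FPKM values, in which fragments are divided by the length of the transcript and by all mapped fragments, so levels of different genes can be set side by side. Folds and log2 ratios are of ScxGFP-positive over ScxGFP-negative. Log2 ratios have a pseudocount of 1 FPKM, which understates differences of genes at low levels, and folds without a pseudocount are named as ratios of FPKM. A gene counted as measured with at least 1 FPKM in at least one library, which held for 12096 genes. Their median log2 ratio was -0.27. Aligned sequence on the listed transcripts was 0.687 gigabases in the positive and 0.875 gigabases in the negative library. *Scx* itself, the check of the labels, stood at 134 FPKM in the positive library and 1.69 FPKM in the negative library. *Tbx5*, the T-box gene of the forelimb, stood at 27.4 FPKM in positive and 15.9 FPKM in negative cells, and its hindlimb relative *Tbx4* at 2.07 and 0.565 FPKM. Because the populations were sequenced in bulk, fewer cells of a type and less RNA per cell cannot be told apart in any value below.

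All 5 genes had more FPKM in the ScxGFP-positive library than in the ScxGFP-negative library. *Thbs4* differed by the widest margin, at 14.4 FPKM in positive cells and 0.128 FPKM in negative cells, followed on the FPKM + 1 scale by *Thbs2*, at 8.06 and 0.647 FPKM. *Thbs1* and *Thbs3* were also more than 2-fold higher in positive cells, and *Comp* was higher at a level under 1 FPKM in both populations. Of the 5 genes, 4 were at least 2-fold higher on the FPKM + 1 scale and 0 were at least 2-fold lower. For comparison, 4.03% of all measured genes passed 2-fold upward and 9.98% passed it downward. With FPKM scaled by the median ratio, the shares were 5.42% and 8.02%. With both libraries rescaled to the same total (TPM), they were 10.6% and 10.7% of 15090 genes. A unit is smaller in TPM, so more genes reach the minimum of 1 and the pseudocount of 1 weighs less. *Thbs1* and *Thbs3* were above 1 FPKM in both libraries. *Thbs2* and *Thbs4* counted as measured through the positive library alone, so they could be counted as measured only by being high there, and *Comp* was not measured by that rule.

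**Figure D1:**
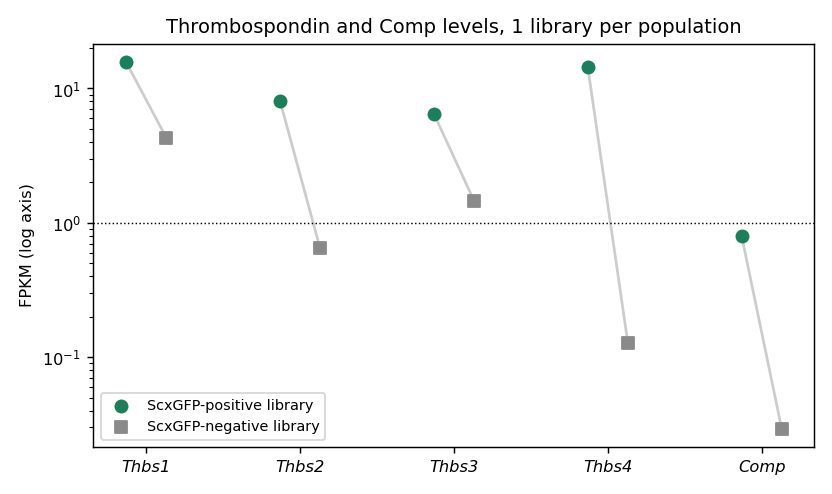
FPKM (log axis) of each gene in the ScxGFP-positive library (circles) and the ScxGFP-negative library (squares), 1 library each and so without error bars; the dotted line marks 1 FPKM. Every circle lies above its square, and the gap is widest for *Thbs4*, at 14.4 against 0.128 FPKM.

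The regions before the transcription start are shown because these genes differed in the same direction. The sequences are the 250 bases before the RefSeq start of *Thbs2*, *Thbs3* and *Thbs4* in build GRCm38.p6, a later build than the mm9 of the expression tables, with positions of GRCm38.p6 and 5′ to 3′ along the gene. Capitals mark the E-box CANNTG, the general recognition motif of bHLH factors, the family to which scleraxis belongs.
*Thbs2* (chr17:14694263-14694512, minus strand): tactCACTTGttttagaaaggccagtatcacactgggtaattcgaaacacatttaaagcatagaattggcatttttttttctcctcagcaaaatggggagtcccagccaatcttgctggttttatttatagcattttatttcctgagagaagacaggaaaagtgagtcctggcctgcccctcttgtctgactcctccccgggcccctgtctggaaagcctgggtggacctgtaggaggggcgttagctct
*Thbs3* (chr3:89214930-89215179, plus strand): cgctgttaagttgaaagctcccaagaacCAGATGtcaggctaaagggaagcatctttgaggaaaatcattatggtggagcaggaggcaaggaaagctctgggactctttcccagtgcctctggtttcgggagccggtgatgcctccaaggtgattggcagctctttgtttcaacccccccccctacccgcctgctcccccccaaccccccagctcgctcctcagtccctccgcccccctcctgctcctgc
*Thbs4* (chr13:92794819-92795068, minus strand): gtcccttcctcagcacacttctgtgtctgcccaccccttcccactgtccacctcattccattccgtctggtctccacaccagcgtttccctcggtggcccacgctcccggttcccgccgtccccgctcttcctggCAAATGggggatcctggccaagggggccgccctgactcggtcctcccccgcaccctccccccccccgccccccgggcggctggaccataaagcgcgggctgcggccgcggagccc

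Each of the 3 windows held 1 E-box, with the letters CACTTG in *Thbs2*, CAGATG in *Thbs3* and CAAATG in *Thbs4*. Their last bases lay 241, 217 and 110 bases before the start of *Thbs2*, *Thbs3* and *Thbs4*. An E-box on either strand was present in 66.2% of all 32851 RefSeq promoter windows of this length, so its presence in these 3 is not particular to them. The windows differed in composition, from 46.8% G and C in *Thbs2* to 58.8% in *Thbs3* and 70.8% in *Thbs4*. The GC box GGGCGG, searched on both strands, had 3 matches in *Thbs4*, 1 in *Thbs3* and 0 in *Thbs2*, and 32.7% of all windows held at least 1. CCAAT, on either strand, had 2 matches in *Thbs2*, 1 in *Thbs3* and 0 in *Thbs4*, against 33.8% of all windows with at least 1. TATAAA, on either strand, had 1 match in *Thbs2*, 0 in *Thbs3* and 0 in *Thbs4*, and was present in 12.4% of all windows. Among these letters, the *Thbs2* and *Thbs4* windows shared the E-box alone.

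Among the trimeric thrombospondins, *Thbs1* was the more abundant in both libraries. *Thbs1* encodes a matrix protein that is also stored in platelets, restrains angiogenesis and activates latent TGF-beta (NM_011580, mm9 chromosome 2, 117937658 to 117952869). It reached 15.7 FPKM in positive cells and 4.31 FPKM in negative cells, a log2 ratio of 1.65 and a ratio of FPKM of 3.64. Its level in positive cells exceeded that of 88.7% of measured genes, and its level in negative cells that of 46.2%. It was thus the member with the most sequence behind it, 207513 aligned bases in positive and 59691 in negative cells. *Thbs1* was also the highest of the 5 genes in each population.

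*Thbs2* encodes the close relative of thrombospondin 1 made by fibroblasts, whose loss in mice gives abnormal collagen fibrils and lax tendons (NM_011581, mm9 chromosome 17, 14802507 to 14831269). It stood at 8.06 FPKM in positive cells and 0.647 FPKM in negative cells. The log2 ratio was 2.46 and the ratio of FPKM 12.4, larger than those of *Thbs1*. The level of *Thbs1* was 1.94 times that of *Thbs2* in positive cells and 6.66 times in negative cells, so the pair was closer in level in the positive library. The negative value of *Thbs2* lay above 2.88% of measured genes and rests on 9155 aligned bases. Most measured genes reached 1 FPKM in negative cells, and *Thbs2* was measured through the positive library alone, so that share is low by the filter. Among all 22096 symbols, *Thbs2* ranked 12394 in negative cells.

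Among the pentameric members, *Thbs4* had the widest difference between the populations. *Thbs4* encodes a thrombospondin of tendon, muscle and heart (NM_011582, mm9 chromosome 13, 93521541 to 93564773). At 14.4 FPKM it stood above 87.5% of measured genes in positive cells, and at 0.128 FPKM above 0.926% in negative cells. Of the 12096 measured genes, 11497 reached 1 FPKM in negative cells, so any value under 1 FPKM ranks low there by the filter. Among all 22096 symbols, *Thbs4* ranked 14924 in negative cells. Its log2 ratio of 3.77 ranked 70 among the 12096 measured genes, against rank 117 for *Thbs2*, 214 for *Thbs1* and 230 for *Thbs3*. *Scx*, the gene behind the sort, had a larger log2 ratio than *Thbs4*, 5.65, at rank 42. Without a pseudocount the order was reversed, with a ratio of FPKM of 79.5 for *Scx* and 112 for *Thbs4*. The *Thbs4* values rest on 105064 aligned bases in positive cells and 980 in negative cells, so the size of that ratio is poorly bounded. In positive cells the level of *Thbs1* was 1.09 times that of *Thbs4*. In negative cells it was 33.6 times that of *Thbs4*.

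*Thbs3* encodes a pentameric thrombospondin expressed in the developing mouse skeleton (NM_013691, mm9 chromosome 3, 89019109 to 89030759). It stood at 6.47 FPKM in positive cells and 1.46 FPKM in negative cells, a log2 ratio of 1.60 and a ratio of FPKM of 4.42. Its ratios lay close to those of *Thbs1*, and with no replicates their order cannot be judged.

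*Comp* encodes a pentameric matrix protein of cartilage, tendon and ligament that is mutated in human pseudoachondroplasia (NM_016685, mm9 chromosome 8, 72897447 to 72905965). It was the lowest of the 5 genes in both libraries, at 0.796 FPKM in positive cells and 0.0294 FPKM in negative cells. The log2 ratio of 0.80 was within 2-fold, whereas the ratio of FPKM without a pseudocount was 27.1. These values rest on 4409 aligned bases in positive and 170 in negative cells, so little more can be said than that *Comp* was listed higher in the positive library. With a pseudocount of 0.1 the log2 ratio of *Comp* was 2.79. After rescaling both libraries to the same total (TPM), where a pseudocount of 1 weighs less, it was 2.38. Both were past 2-fold. Relative to the median of all measured genes, the log2 ratios were 1.92 for *Thbs1*, 2.72 for *Thbs2*, 1.87 for *Thbs3*, 4.03 for *Thbs4* and 1.07 for *Comp*. Scaling FPKM by the median ratio before the pseudocount instead gave 0.93 for *Comp*, and equal upper quartiles gave 0.94, both within 2-fold. With a pseudocount of 5, *Thbs3* came to a log2 ratio of 0.83, under 2-fold.

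**Figure D2:**
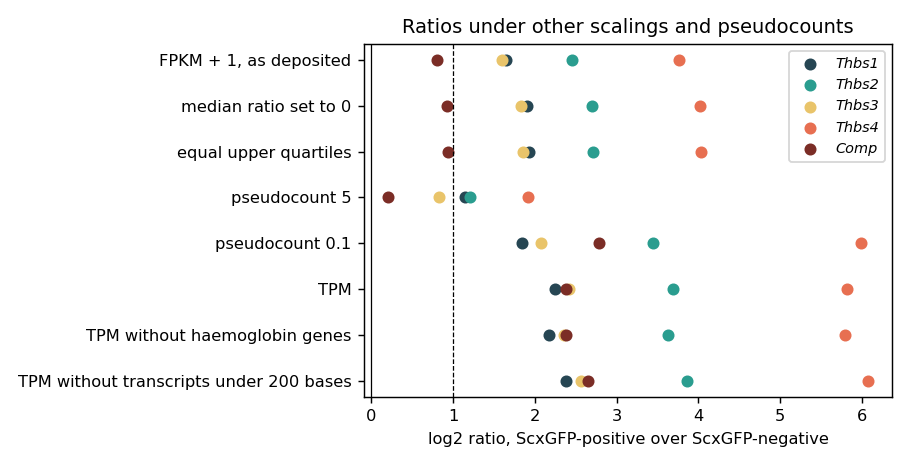
Log2 ratio of each gene (ScxGFP-positive over ScxGFP-negative) with the values as deposited and under other scalings and pseudocounts; the dashed line marks 2-fold. All points lie above 0, *Thbs4* runs from 1.92 to 6.08, and *Comp* from 0.20 to 2.79 crosses the 2-fold line.

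The make-up of the family differed between the populations. Summed over the 5 genes, thrombospondin transcripts came to 45.3 FPKM in ScxGFP-positive cells and 6.58 FPKM in ScxGFP-negative cells, a ratio of 6.90. *Thbs1* made up 34.5% of that sum in positive cells and 65.5% in negative cells. *Thbs4* made up 31.7% in positive cells and 1.95% in negative cells, so the shares of these 2 genes differed the most. *Thbs2* contributed 17.8% in positive and 9.84% in negative cells, *Thbs3* 14.3% and 22.3%, and *Comp* 1.76% and 0.447%. Pentameric members together held 47.7% in positive and 24.7% in negative cells, at 21.6 and 1.62 FPKM. Trimeric members stood at 23.7 FPKM in positive and 4.96 FPKM in negative cells. The order of levels was *Thbs1*, *Thbs4*, *Thbs2*, *Thbs3*, *Comp* in positive cells and *Thbs1*, *Thbs3*, *Thbs2*, *Thbs4*, *Comp* in negative cells. Without replicates, no neighbours in either order can be said to differ.

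**Figure D3:**
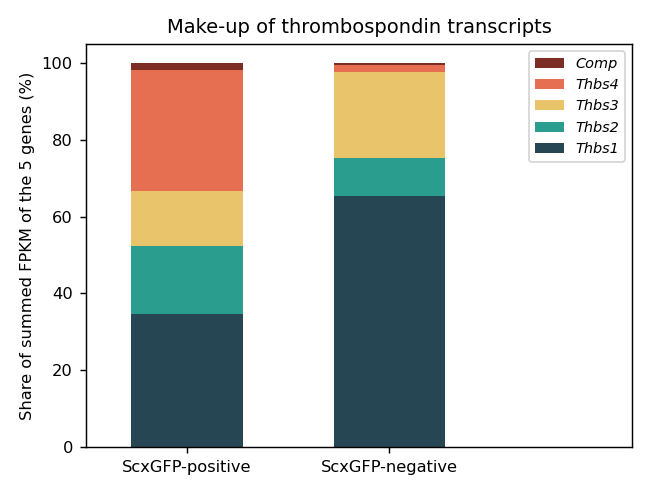
Share (%) of the summed FPKM of the 5 genes held by each gene in the ScxGFP-positive library (left) and the ScxGFP-negative library (right). *Thbs4* holds 31.7% of the left bar and 1.95% of the right bar, and *Thbs1* 34.5% and 65.5%.

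Each gene was represented by 1 RefSeq transcript, with status OK in both libraries, so no value depends on how fragments were divided among isoforms. The deposited transcript lengths were 5802 bases for *Thbs1*, 5922 for *Thbs2*, 3183 for *Thbs3*, 3202 for *Thbs4* and 2426 for *Comp*. In the GENCODE vM21 annotation the matching transcripts encode 1171, 1172, 956, 963 and 755 amino acids in the same order, the trimeric proteins being the longer ones. Their exons number 22 in *Thbs1*, 22 in *Thbs2*, 23 in *Thbs3*, 22 in *Thbs4* and 19 in *Comp*. The members' transcripts had little exact sequence in common. Exact words of 25 bases were shared by 2 of the 10 pairs of these transcripts, *Thbs1* with *Thbs2* and *Thbs4* with *Comp*, with 2 words in each pair, and *Thbs4* held 3174 such words in all.

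Of the 10 genes flanking the members, 6 were measured, and 1 of these was at least 2-fold higher in positive cells and 0 lower, too few to set against the 4.03% of all measured genes that were higher. *Thbs3* and *Mtx1*, which encodes the mitochondrial import protein metaxin 1, lie 851 bases apart in mm9 and, in RefSeq, on opposite strands that run away from each other. *Mtx1* stood at 4.95 FPKM in positive cells and 7.56 FPKM in negative cells, a log2 ratio of -0.53, on the other side of 0 from the 1.60 of *Thbs3*. *Thbs4* likewise lies head to head with a metaxin gene, *Mtx3*, at a distance of 49968 bases. *Mtx3* stood at 3.99 FPKM in positive and 3.64 FPKM in negative cells, a log2 ratio of 0.10. On the other side of *Thbs4*, *Serinc5*, a membrane protein gene, stood at 1.30 FPKM in positive and 2.23 FPKM in negative cells.

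*Comp* lies 291 bases from *Crtc1*, the gene of a CREB coactivator, which stood at 4.73 FPKM in positive and 3.94 FPKM in negative cells. Its other neighbour, the nonsense-mediated decay gene *Upf1*, stood at 3.998 FPKM in positive and 5.38 FPKM in negative cells. Both were expressed in both populations at levels above that of *Comp*. The genes flanking *Thbs1*, *Rasgrp1* (a Ras activator of lymphocytes) and *Fsip1*, were under 1 FPKM in both libraries, as was *Wdr27* beside *Thbs2*. *Mir92b*, 278 bases from *Thbs3*, was listed at 0 in both.

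The flanking gene past 2-fold was *Smoc2*, on the other side of *Thbs2*, which encodes a secreted calcium-binding matrix protein. *Smoc2* lies 260709 bases from *Thbs2* and stood at 11.5 FPKM in positive cells and 0.901 FPKM in negative cells. Its log2 ratio of 2.72 was close to the 2.46 of *Thbs2*.

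Genes with the most similar pair of levels were found by Euclidean distance in log2(FPKM + 1) over the 2 libraries. With only 2 libraries such likeness says that the levels match and no more. Nearest to *Thbs1* were the adhesion gene *Ncam1* (distance 0.057), *Mgp*, which encodes matrix Gla protein (0.069), and the leucine-rich membrane protein gene *Flrt2* (0.11). *Thbs2* was nearest to the connective tissue transcription factor gene *Osr2* (0.10), the elastin gene *Eln* (0.15) and *Chodl* (0.19). *Osr2* stood at 8.56 FPKM in positive and 0.570 FPKM in negative cells. *Thbs3* was nearest to *Lrig1* (0.042), a leucine-rich membrane protein gene, to the cadherin gene *Fat3* (0.099) and to the microRNA gene *Mir669k* (0.10). *Comp* was nearest to *Shisa3* (0.17), to *Musk*, the receptor kinase of the neuromuscular junction (0.22), and to *Rgs8* (0.23).

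For *Thbs4* the nearest were the microRNA genes *Mir1966* (0.19), *Mir690* (0.22) and *Mir410* (0.23), each listed at 0 in negative cells. FPKM of such short transcripts is unstable. Among genes with a transcript of at least 200 bases, a limit set after these values were seen, the nearest to *Thbs4* were *Tnmd* (0.47), *Kera* (0.55) and the transcription factor gene *Ebf2* (0.55). *Tnmd* encodes the tendon membrane protein tenomodulin and *Kera* the proteoglycan keratocan. They stood at 10.2 FPKM in positive and 0.0361 FPKM in negative cells and at 21.4 and 0.192 FPKM. Those distances were larger than for the other members, so no measured long gene matched the pair of *Thbs4* levels as closely.

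**Figure D4:**
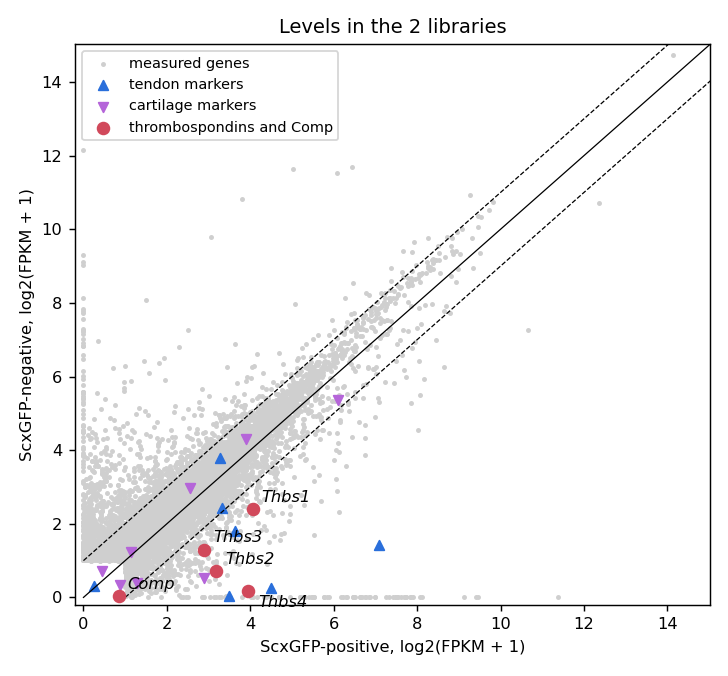
Level of each measured gene, log2(FPKM + 1), in the ScxGFP-positive library (horizontal) and the ScxGFP-negative library (vertical), with the thrombospondins and *Comp* in red, tendon markers as blue triangles and cartilage markers as purple triangles; dashed lines mark 2-fold. *Thbs4*, with 14.4 against 0.128 FPKM, lies near the horizontal axis between the tendon markers *Tnmd* and *Kera*.

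Markers of other cell types differed between the libraries as well. For the counts below, 4.03% of all measured genes were at least 2-fold higher in positive cells and 9.98% at least 2-fold lower. Relative to its level in positive cells, the level in negative cells was 0.892% for *Thbs4*, 3.69% for *Comp*, 8.03% for *Thbs2*, 22.6% for *Thbs3* and 27.5% for *Thbs1*. The same share was 1.26% for *Scx*. Of 6 measured tendon markers, 4 were at least 2-fold higher in positive cells and 0 lower, with sums of 195 FPKM in positive and 21.7 FPKM in negative cells over the 7 listed. Without *Scx*, the gene of the sort, the sums were 60.7 FPKM in positive and 20.02 FPKM in negative cells. *Egr1*, a zinc finger factor gene also induced by stress, went the other way, at 8.64 FPKM in positive and 12.7 FPKM in negative cells. Of 8 measured skeletal muscle markers, 7 were higher and 0 lower, with sums over 9 genes of 155 FPKM in positive and 20.1 FPKM in negative cells. Of 6 genes listed for muscle connective tissue, 3 were higher and 0 lower, with sums of 139 FPKM in positive and 57.8 FPKM in negative cells. Those sums include *Tcf4*, at 32.6 FPKM in positive and 22.0 FPKM in negative cells, which was not among the 3. *Tcf4* is not *Tcf7l2*, the gene of the connective tissue marker protein called TCF4. The sums are therefore not of markers of that cell type alone. The part of muscle or connective tissue cells in the thrombospondin values was not tested.

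Of 6 measured cartilage markers, 1 was at least 2-fold higher in positive cells, *Lect1* (chondromodulin), and 0 were lower. *Acan*, which encodes the cartilage proteoglycan aggrecan, stood at 0.847 FPKM in positive and 0.265 FPKM in negative cells (named after its value was seen), and *Matn1*, which encodes matrilin 1, at 1.43 and 0.301 FPKM. *Col2a1*, the main cartilage collagen, stood at 68.1 and 40.4 FPKM. Others had less FPKM in positive cells. *Col9a1*, a type IX collagen chain, stood at 4.90 FPKM in positive and 6.89 FPKM in negative cells. Chosen after their values were seen were *Sox9*, the chondrocyte regulator, at 13.9 and 18.9 FPKM, *Hapln1*, which encodes a link protein, at 1.20 and 1.34 FPKM and *Matn3* at 0.362 and 0.641 FPKM. Their log2 ratios were -0.42 for *Col9a1*, -0.41 for *Sox9*, -0.092 for *Hapln1* and -0.27 for *Matn3*. All were within 2-fold and near the median of -0.27 of all measured genes. Of 3 measured smooth muscle and pericyte markers, 2 were higher, with sums over 7 genes of 27.1 FPKM in positive and 5.69 FPKM in negative cells.

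Measured markers of the remaining cell types went the other way. Of the 3 measured osteoblast and perichondrium markers 3 were at least 2-fold lower in positive cells, as were 7 of 8 endothelial, 8 of 8 macrophage and leukocyte, 6 of 6 erythroid, 6 of 6 epidermal and 5 of 6 Schwann cell and nerve markers. The osteoblast genes under 1 FPKM in both libraries were mixed. *Alpl* (0.922 FPKM in positive and 0.141 FPKM in negative cells) and *Ibsp* (0.181 and 0) were higher in positive cells. *Bglap* was lower (0.187 and 0.902). Megakaryocyte and platelet markers, of interest because platelets store thrombospondin 1, summed to 2.35 FPKM in positive and 26.9 FPKM in negative cells over 8 genes, of which 2 were measured and both at least 2-fold lower in positive cells. *Pf4*, which encodes platelet factor 4, made up most of that sum, at 1.33 FPKM in positive and 21.6 FPKM in negative cells, and the other 7 genes summed to 1.02 FPKM in positive and 5.31 FPKM in negative cells. *Thbs1* was thus the higher in the library in which these platelet genes were the lower. Which cells of either pool carry *Thbs1* was not tested.

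Genes that act with thrombospondins were described as lists, by counts and medians beside the median of -0.27 of all measured genes. Of all measured genes, 4.03% were at least 2-fold higher in positive cells and 9.98% at least 2-fold lower. A count of 1 lower gene in the lists below is near that share. Matrix partners include collagens and matrilins that COMP and thrombospondins bind. At least 2-fold higher in the positive library were 7 of 14 measured partners; 1 was lower and 6 were neither, with a median log2 ratio of 0.97. The higher genes included *Dcn*, the proteoglycan decorin (66.2 FPKM in positive and 6.42 FPKM in negative cells), the type I collagen chains *Col1a1* (268 and 44.6) and *Col1a2* (285 and 60.3), and *Fn1*, fibronectin (85.3 and 19.6). Collagens XII and XIV, which bind COMP, were higher too, *Col12a1* at 29.7 FPKM in positive and 11.0 FPKM in negative cells and *Col14a1* at 10.9 and 2.12. These last genes were named after their values were seen. Of the type IX collagen chains, *Col9a2* was just past 2-fold, at a log2 ratio of 1.05, and *Col9a1* and *Col9a3* lay at -0.42 and -0.20. *Ecm1*, the gene of extracellular matrix protein 1, was the lower one, at 1.14 FPKM in positive and 5.35 FPKM in negative cells.

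Receptors did not share the direction of the thrombospondins. Of 14 measured receptor genes, 1 was at least 2-fold higher in positive cells, 5 were lower and 8 were neither, and the median log2 ratio was -0.55. *Cacna2d1*, the calcium channel subunit that binds thrombospondins in neurons, was the higher one, at 3.32 FPKM in positive and 1.09 FPKM in negative cells. *Cd36*, the type 1 repeat receptor also found on endothelium and macrophages, stood at 0.213 FPKM in positive and 3.26 FPKM in negative cells. The integrin genes *Itga6* (2.50 FPKM in positive and 17.5 FPKM in negative cells) and *Itga4* (3.33 and 19.4) and the phosphatase gene *Ptprj* (1.20 and 6.38) were lower as well, as was *Itga3* (0.354 and 1.95), named after its value was seen. The markers of endothelium, blood and epidermis, which also express these receptors, were lower in positive cells by the counts above, and their part was not tested. *Cd47*, a receptor of the thrombospondin C-terminal domain, stood at 6.96 FPKM in positive and 12.9 FPKM in negative cells. *Lrp1*, the endocytic receptor that clears thrombospondins, stood at 21.8 and 13.1 FPKM and *Itgb1*, the shared integrin beta chain, at 27.8 and 27.0 FPKM. These 3, described after their values were seen, were within 2-fold.

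In the list of latent TGF-beta and its activation, positive cells had 5 of 12 measured genes past 2-fold upward, 1 downward and 6 within 2-fold, with a median log2 ratio of 0.76. The ligand gene *Tgfb3* stood at 9.68 FPKM in positive and 2.74 FPKM in negative cells, and *Tgfb1* went the other way, at 0.370 and 9.81 FPKM. *Ltbp1*, which encodes a latent TGF-beta binding protein, stood at 26.2 FPKM in positive and 7.67 FPKM in negative cells, and *Lrrc32*, the gene of a membrane anchor of latent TGF-beta, at 4.53 and 0.964 FPKM. *Ltbp4* and *Tgfbr3*, named after their values were seen, were just past 2-fold, at log2 ratios of 1.02 and 1.06. *Tgfb2*, also named after its value was seen, had more FPKM than *Tgfb1* and *Tgfb3* in both libraries. It stood at 15.9 FPKM in positive and 11.0 FPKM in negative cells, a log2 ratio of 0.50. *Thbs1*, whose product activates latent TGF-beta, was thus higher in the same library as *Tgfb3* and *Ltbp1* and not in the one with more *Tgfb1*, while *Tgfb2* was within 2-fold.

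Proteases that cleave thrombospondins or COMP, and their inhibitors, were mostly within 2-fold. Past 2-fold were 3 of 13 measured genes, 2 of them higher and 1 lower in positive cells, and the median log2 ratio was 0.70. Of all measured genes, 14% were past 2-fold in either direction, and a count this small cannot be set apart from that share. The higher ones were *Htra1*, a secreted serine protease (5.86 FPKM in positive and 1.70 FPKM in negative cells), and *Adamts12*, whose product degrades COMP (4.90 and 1.75). *Adamts7*, which encodes the other COMP-degrading enzyme of this pair, lay just under 2-fold, at 4.09 FPKM in positive and 1.61 FPKM in negative cells, a log2 ratio of 0.96. The neutrophil elastase gene *Elane* was the lower one, at 0.0379 FPKM in positive and 2.34 FPKM in negative cells. Both COMP-degrading enzymes were therefore measured at higher FPKM than *Comp* itself in both populations.

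Other genes whose products carry type 1 repeats were higher more often than lower. Among the 35 measured of 54 found, positive cells had 9 genes at least 2-fold higher, 2 lower and 24 neither, with a median log2 ratio of 0.71. *Wisp1*, of the CCN family, stood at 6.09 FPKM in positive and 0.716 FPKM in negative cells, the protease gene *Adamts15* at 6.21 and 0.943 FPKM, and *Adamts2*, the procollagen N-proteinase, at 4.75 and 0.833 FPKM. The lower ones were *Unc5b*, a netrin receptor gene (2.54 FPKM in positive and 9.83 FPKM in negative cells), and *Thsd1*, an endothelial gene (0.225 and 2.53) named after its value was seen. Of these genes, 5 are also in the list of proteases (*Adamts1*, *Adamts4*, *Adamts5*, *Adamts7* and *Adamts12*), so the counts and medians of these lists are not independent.

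The machinery that modifies and folds thrombospondins was mostly within 2-fold between the 2 libraries. The 4 genes that add sugars to type 1 repeats were all within 2-fold. *Pofut2*, which encodes the protein O-fucosyltransferase of type 1 repeats, stood at 13.1 FPKM in positive and 9.50 FPKM in negative cells, and *B3galtl*, whose enzyme extends that fucose, at 4.43 and 5.62 FPKM. The C-mannosyltransferase genes *Dpy19l1* and *Dpy19l3* had log2 ratios of 0.10 and 0.26. Of 10 chaperone and *Atf6* pathway genes of the endoplasmic reticulum, through which thrombospondin 4 acts in mouse heart, 9 were within 2-fold, with a median of -0.084. *Atf6* stood at 2.75 FPKM in positive and 3.81 FPKM in negative cells, and *Sdf2l1*, the gene past 2-fold, at 5.66 and 18.5 FPKM.

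**Figure D5:**
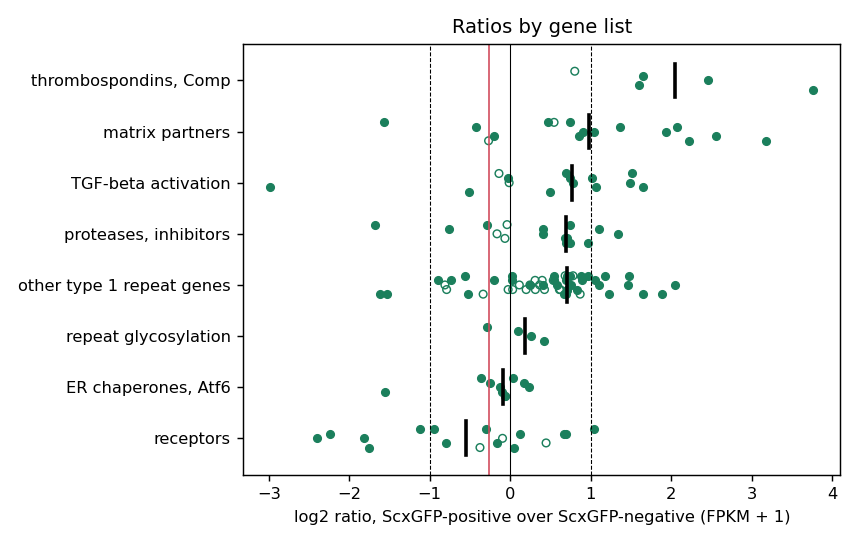
Log2 ratio (ScxGFP-positive over ScxGFP-negative, FPKM + 1) of each gene by list; filled points are measured genes, open points lie under 1 FPKM in both libraries, black bars are medians of measured genes, dashed lines mark 2-fold and the red line marks the median of all measured genes at -0.27. The 4 filled thrombospondin points lie between 1.60 and 3.77, matrix partners centre at 0.97 and receptors at -0.55.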

How the data were processed

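Total RNA of 2 pools of sorted E13.5 forelimb cells was sequenced. Per the labels' protocols, it was extracted with a Qiagen micro kit and was amplified to cDNA with NuGEN Ovation v2 chemistry. That chemistry does not mark strand, and 0 listed genes overlapped a member. The submitters' processing notes name Bowtie 0.12.7, TopHat 1.4.1 and the build mm9; the program that estimated abundance is not named there. Per the file headers, the authors deposited for each RefSeq transcript an FPKM, a coverage (signal, estimated aligned depth), a length and a status. Each table has 28107 rows.

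FPKM was summed per symbol with Python 3.11.15 and pandas 2.3.3; 6 symbols with a failed row in either library were treated as missing, none of them a gene described here. Length equalled end minus start in 3284 rows and end minus start plus 1 in 0, so file positions count from 0 and 1 was added to starts. Aligned bases are coverage times length. Read counts and depth in reads are unknown, so no interval is given, and no test was run on single libraries. The calculation was checked on simulated data. Members and lists were chosen with earlier results of these data known. Named genes were the 5 members, up to 4 measured genes per list with the largest absolute log2 ratio (and the largest of the other sign), the flanking genes, and the 3 nearest genes by level. Other genes given here were chosen after their values were seen. *Ism2* of the type 1 repeat list and *Snorc* of the cartilage list were not found under those symbols. *Cnmd* of the cartilage list is the newer symbol of *Lect1*, under which that gene was found. Promoters came from RefSeq (GRCm38.p6), in which 3 of the 5 members were matched. Alternatives were other pseudocounts, filters and scalings, and the highest transcript per gene.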

Additional observations from a re-analysis of the deposited data

How the results depend on the processing

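All 5 log2 ratios stayed above 0 under all 10 alternatives. Those of *Thbs1*, *Thbs2* and *Thbs4* stayed past 2-fold in all 10, that of *Thbs3* in 9, and that of *Comp* in 4. These counts include settings that could not change a member's ratio. The filters do not enter the ratio, and the highest transcript is the only one of each member. With a pseudocount of 5 the ratios were 1.21 for *Thbs2*, 0.83 for *Thbs3*, 1.92 for *Thbs4* and 0.20 for *Comp*, and over all measured genes 222 were higher by 2-fold and 394 lower, against 488 and 1207 with a pseudocount of 1. With a pseudocount of 0.1 they were 3.45 for *Thbs2*, 5.99 for *Thbs4* and 2.79 for *Comp*. Rescaling to equal sums (TPM), where a unit is smaller and a pseudocount of 1 weighs less, gave 2.25 for *Thbs1*, 3.69 for *Thbs2*, 2.42 for *Thbs3*, 5.83 for *Thbs4* and 2.38 for *Comp*, with 1593 genes higher (10.6% of 15090) and 1611 lower (10.7%). TPM without haemoglobin genes gave 3.63 for *Thbs2*, 2.35 for *Thbs3*, 5.80 for *Thbs4* and 2.38 for *Comp*, with 1468 higher and 1712 lower. TPM without transcripts under 200 bases gave 2.38 for *Thbs1*, 3.86 for *Thbs2*, 2.56 for *Thbs3*, 6.08 for *Thbs4* and 2.65 for *Comp*, with 1801 higher (11.9% of 15119) and 1497 lower (9.90%), so the larger side changed. With a minimum of 5 FPKM, 323 genes were higher and 658 lower, fewer genes being counted. The median of all genes was 0.12 with TPM and 0.23 without the short transcripts. Scaling by the median ratio or the upper quartile moved no member's ratio by 1.5-fold. No paired analysis was possible because each population has 1 library, and for the same reason no library could be left out. Depth limits *Comp* and the negative value of *Thbs4*, which rest on few aligned bases.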
